A study of Mus musculus with 4 samples.

Results

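The synaptic vesicle and SNARE genes are described here by the N6-methyladenosine (m6A) peaks over their exons in mouse brain. They were chosen by symbol alone, as the protein-coding genes of GENCODE M21 named synaptotagmin (Syt), syntaxin (Stx), syntaxin-binding protein (Stxbp), vesicle-associated membrane protein (Vamp), complexin (Cplx), synaptic vesicle glycoprotein (Sv2), synapsin (Syn) or synaptogyrin (Syngr), with Snap23, Snap25, Snap29, Snap47, Snap91 and synaptophysin (Syp). The rule found 66 of 21951 protein-coding genes and used no measured value. m6A-seq enriches fragmented mRNA with an antibody against m6A and sequences it beside RNA that was not enriched (input). The series holds 2 m6A IP and 2 input samples from whole brain of 4-week-old C57BL/6J mice, which the series text gives as Prrc2a flox/flox. The labels name no Cre driver and no second genotype, so that all 4 samples share 1 condition. For each of the m6A IP samples the authors deposited peaks called against input, and every peak has a fold enrichment, its IP signal divided by its input signal on a linear scale.

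At a synapse, neurotransmitter is stored in vesicles that fuse with the plasma membrane when calcium enters the nerve terminal. Fusion is driven by SNARE proteins: a Vamp on the vesicle zippers with a syntaxin and a Snap protein on the target membrane. Synaptotagmins sense the calcium, complexins hold and then release the assembled SNAREs, Stxbp proteins fold and guard the syntaxins, and synapsins tether the vesicle pool. Many relatives of these proteins run the same reaction between other membranes of the cell. m6A is the most common internal mark of mRNA, is placed largely at a GGAC core, and is known to gather near stop codons and in long internal exons.

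Bases that lay under peaks of both replicates formed what is called a shared interval. A total of 50 of the 66 genes (75.8%, 95% Wilson interval 64.2 to 84.5) had a shared interval over an exon, where the same was true of 45.6% of all protein-coding genes. The read depth of these libraries is unknown, since the peak lists hold no counts. A gene without a peak therefore cannot be told apart from one whose RNA was too rare to give a peak. The peak lists also name no strand, so that peaks over overlapping genes of opposite strands cannot be told apart either. Of 20 markers of neurons, astrocytes, oligodendrocytes, microglia and endothelium, 19 had a shared interval (all but the endothelial Tek). Markers of other tissues were not included, so that the count does not test the whole-brain label.

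Printed first are the sequences that related genes had in common beneath their peaks. In each, capitals mark the GGACT nearest the middle of the interval, or the nearest GGAC where no GGACT was found in the exon there. The rest is in lower case, 5′ to 3′ on the strand of the gene. A GGAC nearer the middle can therefore stand in lower case, as in Snap47. Coordinates are of GRCm38/mm10. The first pairs come from genes of the same family that carried a peak over matching coding sequence. Syn1 and Syn2 carried it in exon 1 over the start codon, with GGAC just after it and the Syn1 midpoint in the 5′ UTR. Cplx1 and Cplx2 carried it in exon 3, with GGAC exactly 327 nt before the end of the stop codon in both. Syt6 and Syt9 carried it in exon 3, with GGACT 756 and 726 nt before that end.
Syn1 (chrX:20920732-20920789, minus strand): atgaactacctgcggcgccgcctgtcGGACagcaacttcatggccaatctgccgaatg
Syn2 (chr6:115135082-115135141, plus strand): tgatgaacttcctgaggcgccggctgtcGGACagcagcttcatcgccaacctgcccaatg
Cplx1 (chr5:108525490-108525549, minus strand): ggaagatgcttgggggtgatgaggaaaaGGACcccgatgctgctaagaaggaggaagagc
Cplx2 (chr13:54378830-54378889, plus strand): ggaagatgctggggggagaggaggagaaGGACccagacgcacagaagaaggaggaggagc
Syt6 (chr3:103587472-103587532, plus strand): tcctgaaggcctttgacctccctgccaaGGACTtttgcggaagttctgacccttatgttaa
Syt9 (chr7:107436499-107436559, plus strand): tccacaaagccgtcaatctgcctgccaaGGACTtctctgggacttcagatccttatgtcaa

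Over 60 nt of transcript laid motif on motif without gaps, Syn1 and Syn2 were identical at 51 bases (85.0%), Cplx1 and Cplx2 at 49 (81.7%), and Syt6 and Syt9 at 44 (73.3%). These were 3 of 161 such comparisons within families, whose median identity was 31.7%, and the only 3 above 60%. The comparison aligned the printed copy of the motif in each interval, so that places which do not correspond were also set against each other, and intervals without GGAC were left out. Reads that fit both copies were not kept by the authors, who used uniquely mapped reads.

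The next sequences come from intervals described below, as examples of the motif in coding exons and 3′ UTRs of genes with higher values and of Syt1. Stxbp3, Syt12, Snap47, Syt1 and Syt2 are coding, and Stxbp5, Stx6 and Sv2b are 3′ UTR.
Stxbp3 (chr3:108840420-108840468, minus strand): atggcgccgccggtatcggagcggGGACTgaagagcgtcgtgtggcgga
Syt12 (chr19:4456724-4456784, minus strand): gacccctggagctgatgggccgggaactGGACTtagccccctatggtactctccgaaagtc
Snap47 (chr11:59438073-59438133, minus strand): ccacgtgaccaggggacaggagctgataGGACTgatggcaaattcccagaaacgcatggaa
Syt1 (chr10:108636614-108636673, minus strand): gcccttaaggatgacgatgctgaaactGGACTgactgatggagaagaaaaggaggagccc
Syt2 (chr1:134743577-134743629, plus strand): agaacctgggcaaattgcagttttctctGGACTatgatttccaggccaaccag
Stxbp5 (chr10:9760608-9760632, minus strand): aagtcctggaGGACTattctgtgga
Stx6 (chr1:155202720-155202744, plus strand): gcctattgaaGGACTgatggtatct
Sv2b (chr7:75117466-75117490, minus strand): aaggagaaatGGACTttgtgatccc

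On the sense strand, GGACT was found in 27.2% of the transcript windows that reach 100 nt to each side of the midpoints in these genes (31 of 114, Wilson interval 19.9 to 36.0). Over all protein-coding genes it was found in 27.8% of the windows under shared intervals. Windows of the same length laid end to end along the transcripts held it in 20.3% for the vesicle and SNARE genes and in 19.1% for all genes. The shorter GGAC, which every GGACT contains, was found in 74.6% of the windows of these genes, against 69.7% under all shared intervals with 53.6% along their own transcripts and 53.5% along all. GGAC was thus more frequent under the peaks of these genes than along their transcripts, whose share lies below its Wilson interval (65.9 to 81.7). For GGACT its own interval holds the share along the transcripts. Windows of the same gene are not independent, and the windows along transcripts were not matched to the peaks by part of the transcript. The match is a description of letters, and the methylated base was not read.

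The 50 genes held 138 pairs of a gene and a shared interval, of 137 distinct intervals, since 1 interval lay over exons of 2 of these genes on opposite strands. A further 8 of the pairs also touched an exon of a gene outside the list, and the count with all such pairs left out was 128 over 49 genes. The intervals were 163 to 1802 bp long with a median of 331. In all, 10 genes had 1 interval, 16 had 2 and 24 had 3 or more. The 24 with 3 or more were 36.4% of the genes, where 14.7% of all protein-coding genes had as many. When both replicates had to reach a 2-fold enrichment, 36 genes (54.5%) were called, against 36.8% of all protein-coding genes.

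Longer genes had peaks more often, among these genes as among all. Protein-coding genes were split by summed exon length into 3 parts of nearly equal number. In the shortest part (up to 2448 nt), 6 of 11 vesicle and SNARE genes had a shared interval, and 20.2% of all genes. In the middle part, up to 4866 nt, it was 18 of 25 against 47.6%. In the longest part it was 26 of 30 against 68.8%. The vesicle and SNARE genes were more numerous in the longer parts, and within each of the 3 their share was above that of all genes. Expression was not measured here, and its part in this difference was not tested.

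**Figure D1:**
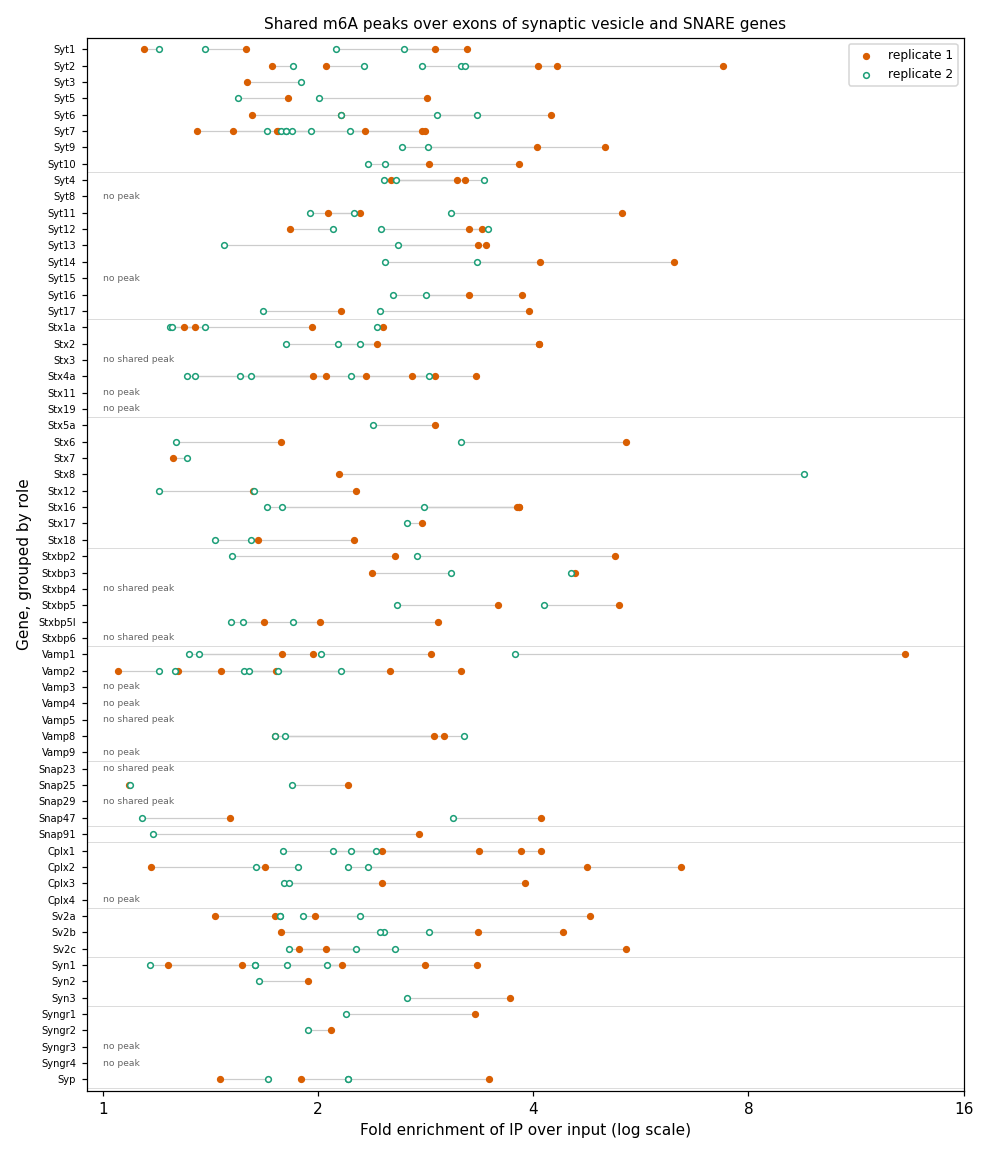
Fold enrichment of IP over input (x axis, log scale) of every shared interval over exons of 64 of the 66 genes (y axis, grouped by role), with filled points for replicate 1, open points for replicate 2 and a line joining both values of an interval. Most intervals lie between 1 and 4, and single points far to the right stand out for Vamp1 in replicate 1 (13.2) and Stx8 in replicate 2 (9.58).

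Across the 131 intervals in which the peaks of both replicates were each other's best match, the median fold enrichment was 2.53 in replicate 1 and 1.95 in replicate 2. Over the 20997 such pairs of all protein-coding genes the medians were 2.98 and 2.30. The peaks of vesicle and SNARE genes were thus lower than the typical peak in both replicates, while more of the genes had one. Replicate 1 gave the higher value in 102 of the 131 pairs (77.9%), close to the 78.2% over all genes, and the values of a single interval are therefore given for both replicates throughout. Spearman's rho between replicates was 0.630 over these pairs, and Pearson's r of the log2 values was 0.582. Over all genes the correlations were 0.639 and 0.629. The correlations are over peaks of the same 2 library pairs, and peaks are not replicates.

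**Figure D2:**
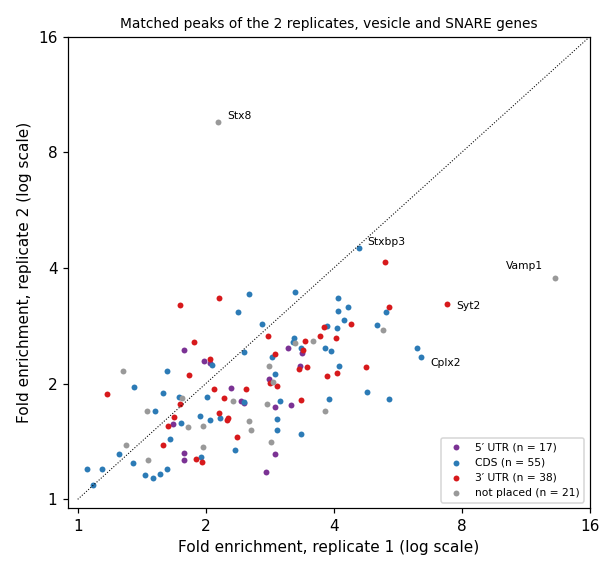
Fold enrichment in replicate 1 (x axis) against replicate 2 (y axis), both on log scales, for the matched peaks of vesicle and SNARE genes, coloured by the part of the transcript that holds the midpoint. Most points fall below the dotted line of equal values, with Vamp1 far right and Stx8 far above.

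On the representative transcript of each gene (whose coding sequence, CDS, is longest), 114 of the 138 intervals could be placed. Of the other 24, 19 had their midpoint in an exon of another transcript and 5 in an intron. Midpoints lay in the CDS in 49.1% of the 114 (Wilson interval 40.1 to 58.2), in the 3′ UTR in 36.0% (27.7 to 45.1) and in the 5′ UTR in 14.9% (9.52 to 22.6). Over all protein-coding genes the shares were 61.4%, 29.2% and 9.39%. The Wilson interval of the 3′ UTR share holds the share over all genes, whereas that of the CDS share lies below it. CDS was therefore the less frequent place in the vesicle and SNARE genes. Their transcripts also hold less CDS, which made up 36.7% of the length of those with a placed interval, against 50.4% for all genes with one, while 3′ UTR made up 57.3% against 43.0%. The 5′ UTR made up 6.05% and 6.62%. These intervals cover counting error only, and peaks of the same gene are not independent.

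Of the 114 midpoints, 23 were within 200 nt of the end of the stop codon (20.2%, 13.8 to 28.5), against 23.1% for all genes. They belonged to 23 genes, 34.8% of the 66, and 20.5% of all protein-coding genes had such an interval. Among genes with any shared interval, 23 of 50 here and 4507 of 9999 over all protein-coding genes had one there, a similar part. Stop codons were thus marked in more of the 66 genes, but not to a clearly larger part among genes with a peak. They also held no larger part of the peaks. The first 200 nt of the transcript held 20 midpoints (17.5%, 11.7 to 25.6), where the share over all genes was 8.97%. The first 200 nt made up 5.41% of the length of these transcripts and 5.03% for all genes.

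**Figure D3:**
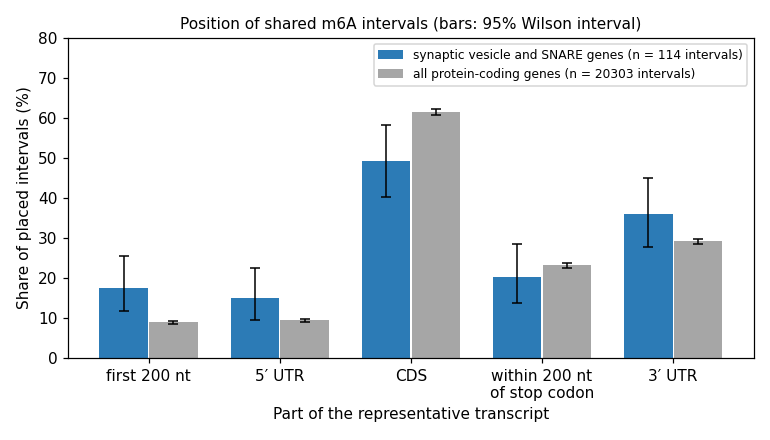
Share of placed shared intervals (y axis, percent) whose midpoint lies in each part of the representative transcript (x axis), for vesicle and SNARE genes (n = 114) and all protein-coding genes (n = 20303), with error bars of 95% Wilson intervals. The parts overlap and do not add to the whole. The blue bar is higher for the first 200 nt (17.5% against 8.97%) and lower for CDS (49.1% against 61.4%).

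**Figure D4:**
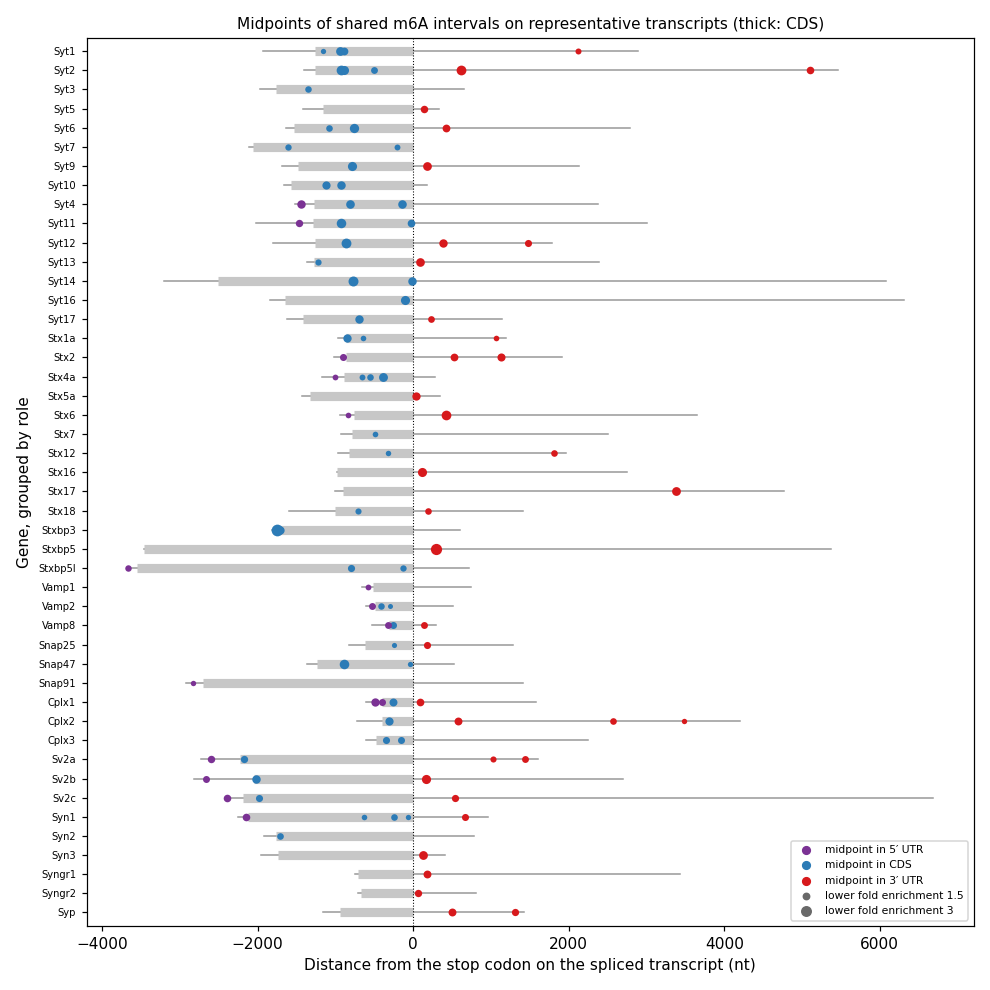
Midpoints of shared intervals on the spliced representative transcripts of 46 genes with a placed interval, as distance from the end of the stop codon (x axis, nt), with thick bars for CDS, thin lines for UTRs, point colour for the part of the transcript and point size for the lower of both fold enrichments. A column of coding midpoints is visible in the synaptotagmins between 699 and 936 nt before the stop codon.

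Synaptotagmins were the family with most intervals, and all 8 that bind calcium (Syt1, Syt2, Syt3, Syt5, Syt6, Syt7, Syt9, Syt10) had a shared interval. Of their 20 placed midpoints, 14 lay in the CDS, 6 in the 3′ UTR and none in the 5′ UTR. Both replicates reached 2 in 7 of the 8, with Syt3 below it at 1.59 in replicate 1 and 1.89 in replicate 2. Of all protein-coding genes, 45.6% had a shared interval and 36.8% had one that reached 2 in both replicates.

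Syt1, the main calcium sensor for fast release in forebrain neurons, had 4 intervals. The highest, in exon 6 (chr10:108642052-108642413), was enriched 3.23-fold in replicate 1 and 2.64-fold in replicate 2. The neighbouring exon 7, whose GGACT is printed above, had 2.91 and 2.12. Among the exons of Syt1, this adjoining coding pair was highest in both replicates. The remaining intervals were weaker, at 1.14 and 1.20 in exon 5 and at 1.59 and 1.39 in the 3′ UTR.

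Syt2, its close relative and the fast sensor of brainstem and cerebellar synapses, had 5. The midpoints of its intervals in coding exons 3 and 4 lay at nearly the same distances as those of Syt1. They were 934 and 888 nt before the end of the stop codon, against 936 and 886. The printed GGACT copies did not match in place, at 890 nt in exon 7 of Syt1 and 819 nt in exon 4 of Syt2. Exon 3 had 4.32 and 3.17, and exon 4 had 4.06 and 2.80. Intervals over the pair of exons were thus found in both genes, and were higher in Syt2 in each replicate. On the spliced transcript the midpoints of a pair lay close together, at nt 994 and 1044 in Syt1 and 477 and 523 in Syt2. The 2 intervals of a pair therefore cannot be told apart from 1 site near the junction of the exons. Highest in Syt2 was the start of the 3′ UTR (chr1:134747577-134749016), with 7.37 in replicate 1 and 3.22 in replicate 2. That replicate 1 value ranked 248th of the 20997 pairs over all genes.

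A coding interval near this place recurred through the family. Between 650 and 1000 nt before the end of the stop codon lay 12 intervals of 10 synaptotagmins: Syt1, Syt2, Syt4, Syt6, Syt9, Syt10, Syt11, Syt12, Syt14 and Syt17. Syt1 and Syt2 each gave their adjoining pair to this count. The distances ran from 699 to 936 nt. Of all protein-coding genes with a placed interval and a CDS of at least 1000 nt, 18.4% had one in this window, which held 8.67% of their intervals. The window was chosen after the values were seen, so the count is a description. The exons were long ones for 8 of the 12, of 300 nt or more.

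Within this window, Syt14, a synaptotagmin without calcium binding, had 4.09 in replicate 1 and 3.33 in replicate 2 (chr1:192930570-192930927). Syt12 had 3.25 and 3.46 (chr19:4456559-4456880), and Syt11, which acts in vesicle recycling, 5.32 and 3.07 (chr3:88761896-88762546). Syt6 had 4.23 and 2.93 (chr3:103587233-103587757). These 4 and Syt2 were among the 10 genes with the highest lower value of both replicates. In Syt12 replicate 2 gave the higher value, unlike in the other 4.

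Outside the window, Syt14 had an interval at the stop codon itself with 6.29 and 2.48, and Syt12 had 2 in the 3′ UTR, of which the first (3.39 and 2.45) also touched the neighbouring gene A930001C03Rik. Syt6 had one in exon 2 with 1.62 and 2.15 and one in the 3′ UTR with 2.15 and 3.34, both higher in replicate 2. Syt11 had 2.07 and 2.24 next to the stop codon and 2.29 and 1.95 in the 5′ UTR. An interval in the window and another within 200 nt of the stop codon were both present in Syt4, Syt9, Syt11 and Syt14.

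Syt7, the slow calcium sensor of facilitation and asynchronous release, had 7 intervals, where Vamp2 and Stx4a, the next highest, had 6 each. Of the 7, 2 lay under a single peak of replicate 2. In replicate 1 the intervals of Syt7 ran from 1.35 to 2.82 and in replicate 2 from 1.70 to 2.22. Only 2 of the 7 lay on its representative transcript, which has no annotated 3′ UTR, and the rest were in exons of other transcripts. Of the 9 synaptotagmins of the other group, 7 had a shared interval and all 7 reached 2 in both replicates. Over all protein-coding genes these shares were 45.6% and 36.8%. Among those not yet given, Syt4 had 3 intervals, with 2.53 to 3.21 in replicate 1 and 2.48 to 3.42 in replicate 2, each also over Gm26658. Syt8 and Syt15 had no peak in either replicate.

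Of 28 internal exons of at least 300 nt in the 66 genes, 18 carried a shared interval (64.3%), and 12 of the 18 that belong to synaptotagmins did. All 28 were in genes with a placed interval. Over all protein-coding genes the share was 37.2%, and over those with a placed interval 61.4%, close to that of the vesicle and SNARE genes. Over all intervals in internal exons, 19 of 45 lay in such long exons (42.2%, 29.0 to 56.7), against 44.1% for all genes, although the long ones were 7.20% and 4.93% of internal exons in genes with a placed interval.

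Among the neuronal SNAREs of the fusion complex, Snap25, Stx1a, Vamp1 and Vamp2 had shared intervals. Snap25, the plasma membrane SNARE with a pair of helices, had 2.20 in replicate 1 and 1.84 in replicate 2 in the 3′ UTR, 174 nt after the stop codon (chr2:136781208-136781427). In coding exon 6 it had 1.09 and 1.09. Another 4 peaks of Snap25 were called in replicate 1 only, at 1.18 to 1.28, and 1 in replicate 2 only, at 1.40. No GGAC was found in either shared interval within the exon of its midpoint. Snap25 thus had many small peaks along its transcript and 1 near 2.

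Stx1a, a syntaxin of the presynaptic membrane, had 4 intervals. It was highest at exon 1 around the start codon, with 2.47 in replicate 1 and 2.42 in replicate 2 (chr5:135023411-135023787). Its other intervals had 1.30 and 1.39, 1.35 and 1.24, and 1.96 and 1.25. The 5′ end was thus its highest place in both replicates.

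Vamp2, the synaptobrevin of most brain synapses, had 6 intervals with values from 1.05 to 3.17 in replicate 1 and from 1.20 to 2.15 in replicate 2. The highest in replicate 1 was exon 1, with 3.17 and 1.76 (chr11:69088428-69088739), and the highest in replicate 2 was the most distal, with 1.28 and 2.15. No interval of Vamp2 reached 2 in both replicates. On its principal APPRIS transcript 3 of the 6 lay in the 3′ UTR, at 188, 893 and 1614 nt from the stop codon, although the transcript with the longest CDS does not contain them.

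Vamp1, the synaptobrevin of motor and brainstem synapses, had 4. The highest, at chr6:125242004-125242369, had 13.2 in replicate 1 and 3.77 in replicate 2, but lay only in an exon of a noncoding transcript beyond the coding ones, and 95.4% of its bases are masked as repeat in the reference. Without it the highest was 2.88 and 2.02, in the 3′ UTR of the principal transcript 217 nt from the stop codon. Vamp1 thus reached 2 in both replicates with and without that interval.

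Vamp8, the Vamp of lysosomal and secretory granule fusion, had 3 intervals: 2.91 and 1.74 in the 5′ UTR, 3.0 and 1.80 in coding exon 2, and 1.74 and 3.20 in the 3′ UTR. The replicates thus ranked its 3′ UTR differently. Vamp3, Vamp4 and Vamp9 had no peak. Vamp5 had 3 peaks in replicate 1, with 6.12, 4.36 and 3.44, and none in replicate 2. Over these genes the 45 exonic peaks found in replicate 1 alone had a median of 2.05, so that those of Vamp5 were well above it and still did not recur.

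Among the plasma membrane syntaxins of other cells, Stx4a had 6 intervals in 2364 nt of summed exons, of which coding exon 7 had the highest lower value, with 2.71 in replicate 1 and 2.86 in replicate 2 (chr7:127845916-127846513). In replicate 1 its 5′ UTR was higher, at 2.92 (1.31 in replicate 2), as was the interval it has in common with another of these genes, at 3.33 (2.22 in replicate 2). For Stx4a, the midpoint of that common interval lay only in an exon of a noncoding processed transcript. Another of its 6 had its midpoint only in a transcript with a retained intron. Stx2 had 3, of which both in the 3′ UTR had 4.07 in replicate 1 (a single peak there) and 2.29 and 2.13 in replicate 2. Stx3, the syntaxin of ribbon synapses and apical membranes, had 3 peaks in replicate 1, at up to 4.87, and none in replicate 2. Stx11 and Stx19, syntaxins of immune and epithelial cells, had none.

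All 8 syntaxins of endosome, Golgi and ER had a shared interval, and 5 reached 2 in both replicates (Stx5a, Stx6, Stx8, Stx16 and Stx17). The same shares over all protein-coding genes were 45.6% and 36.8%. Stx6, of the trans-Golgi network, had 5.39 and 3.17 in the 3′ UTR (chr1:155202048-155202827). The GGACT printed above for Stx6 lies 295 nt from the midpoint of this interval, which is 780 bp long. Stx8, an endosomal syntaxin, had 2.14 in replicate 1 and 9.58 in replicate 2 at the 5′ end of the gene (chr11:67966494-67966693). The midpoint of this interval, the only shared one of Stx8, lay only in an exon of a noncoding transcript. Stx17, of autophagosomes, had 2.80 and 2.66 far into the 3′ UTR, 3382 nt past the stop codon. Stx7 was lowest, with 1.25 and 1.31. The values of Stx17 and Stx7 were close in both replicates, whereas those of Stx8 differed by the largest ratio in the plot of fold enrichment by gene.

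Of the SNAPs outside the synapse, Snap47 had 4.10 and 3.09 in coding exon 2 (chr11:59437914-59438329) and 1.51 and 1.14 near the stop codon. Snap23, the SNAP of most other cells, had 3 peaks in replicate 1 only. Snap29 had 2 in replicate 1 and 1 in replicate 2 that did not overlap, at 2.25, 2.29 and 2.25. Snap91, a clathrin assembly protein that bears the symbol without being a SNARE, had 2.77 and 1.17 in the 5′ UTR.

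Stxbp3, a Munc family partner of syntaxins in insulin-responsive and other cells, ranked first of all 66 by the lower of both values. Its exon 1 interval (chr3:108840269-108840619) had 4.58 in replicate 1 and 4.51 in replicate 2, and the GGACT printed above begins 24 nt after the start of the CDS and has its centre 2 nt from the midpoint. Coding exon 2 had 2.38 and 3.07. Its midpoint at nt 113 of the transcript lay close to that of exon 1 at nt 68. The 2 intervals therefore cannot be told apart from 1 site near the junction of these exons. Stxbp5 (tomosyn), an inhibitor of SNARE assembly, followed with 5.28 and 4.14 at 287 nt past the stop codon (chr10:9760237-9761015). The leading interval of Stxbp3 was thus nearly equal in both replicates.

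Stxbp2 had 5.21 and 2.75 in an exon absent from its representative transcript. Stxbp4 and Stxbp6 had peaks in replicate 1 only, at up to 2.20.

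Of the complexins, Cplx1, Cplx2 and Cplx3 had shared intervals and Cplx4, the complexin of the retina along with Cplx3, had none. The matching exon 3 of Cplx1 and Cplx2 had 4.11 and 2.22 in Cplx1 (chr5:108525265-108525658), and 6.43 and 2.35 in Cplx2 (chr13:54378667-54379081). Both were also marked in the last exon, Cplx1 with 3.85 and 2.10 and Cplx2 with 4.76 and 2.20. In replicate 2 these 4 values lay within 2.10 to 2.35, a narrower spread than the 3.85 to 6.43 of replicate 1. Cplx1 also had intervals in 5′ UTR exons, with 3.36 and 2.41, the first also touching the neighbouring Gm43364, and 2.46 and 1.78. Cplx2 had 2 further weak intervals in its 3′ UTR, with 1.68 and 1.64, and 1.17 and 1.88.

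Sv2a, Sv2b and Sv2c, transporter-like glycoproteins of the vesicle membrane, shared a layout of a 5′ UTR interval in exon 1, a coding interval in the long exon 2 and at least 1 in the last exon. Exon 1 had 1.98 in replicate 1 and 2.29 in replicate 2 for Sv2a, 1.78 and 2.44 for Sv2b, and 2.05 and 2.26 for Sv2c. Exon 2 had 4.80 and 1.91 for Sv2a, 3.35 and 2.48 for Sv2b, and 5.39 and 1.82 for Sv2c. Replicate 2 was thus the higher at exon 1 and replicate 1 at exon 2 in all 3 genes. In the last exon Sv2b had 4.40 and 2.86 within 200 nt of the stop codon (chr7:75117078-75117778, sequence above), and Sv2c had 1.88 and 2.57. Sv2a had 1.44 and 1.77 and also 1.74 and 1.77 at over 1000 nt, with a single replicate 2 peak over both. Of the family, Sv2b alone had a shared interval within 200 nt of the stop codon, and Sv2c had a peak there in replicate 1 only, with 3.0 at 34 nt before its end.

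The synapsins all had shared intervals, as did 45.6% of all protein-coding genes. Syn1 had 5, and its exon 1, with the sequence matched to that of Syn2 above, had 2.82 and 2.06 (chrX:20920687-20920944). The matching exon 1 of Syn2 had 1.94 and 1.65 (chr6:115134979-115135271), its only shared interval. Syn1 was highest in the 3′ UTR, with 3.34 and 1.81, where the interval also touched the gene Araf. Its remaining 3 lay in the CDS at 1.57 and 1.17, 2.16 and 1.63, and 1.23 and 1.63, where 1.63 is the value of a single replicate 2 peak. Syn3 had 3.72 and 2.66 at 122 nt past the stop codon. That was the only shared interval of Syn3.

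Among the tetraspan vesicle proteins, Syp, the abundant membrane protein of synaptic vesicles, had 3.47 in replicate 1 and 2.21 in replicate 2 in the 3′ UTR (chrX:7651744-7652926), touching Gm14703 as well. Its other intervals had 1.89 and 2.21 (the same replicate 2 peak), and 1.46 and 1.70. Syngr1 had 3.32 and 2.19 at 175 nt past the stop codon, and Syngr2 had 2.09 and 1.93 at 65 nt. All 4 placed midpoints of the group were in the 3′ UTR. Syngr3 and Syngr4 had no peak.

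The replicates found members alike but not equally often. Replicate 1 had a peak over exons of 56 of the 66 genes and replicate 2 of 51. Of 181 exonic peaks in replicate 1, 75.1% were part of a shared interval, and of 175 in replicate 2, 76.6%, against 68.1% and 77.0% for all protein-coding genes. No shared interval was found for 6 genes that had a peak in at least 1 replicate (Snap23, Snap29, Stx3, Stxbp4, Stxbp6 and Vamp5), and 10 genes had no peak at all (Cplx4, Stx11, Stx19, Syngr3, Syngr4, Syt8, Syt15, Vamp3, Vamp4 and Vamp9).

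Of 36 other genes of the vesicle cycle, 27 had a shared interval (75%, against 45.6% of all protein-coding genes), a share like that of the vesicle and SNARE genes. Both replicates reached 2 in 16 (44.4%), against 54.5% of the vesicle and SNARE genes and 36.8% of all genes. The 27 included all 4 genes that take SNAREs apart (Nsf, Napa, Napb and Napg), all 7 of endocytosis (such as Dnm1 and Synj1), 12 of 18 of priming and vesicle association, and 4 of 7 vesicular transporters. The transporter genes without one were the monoamine and acetylcholine carriers Slc18a1, Slc18a2 and Slc18a3, while Slc17a8, the glutamate transporter of sparse neuron groups, had 4.31 in replicate 1 and 4.34 in replicate 2. Also without a shared interval were Cadps2, Doc2a, Rab3d, Scamp5, Synpr and Sypl.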

How the data were processed

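Per the labels and methods, mRNA from whole brain was fragmented, immunoprecipitated with a polyclonal m6A antibody and made into TruSeq libraries. The authors trimmed reads, aligned them to mm10 with TopHat, kept uniquely mapped reads, and called peaks with MACS2 for each biological replicate against its input, keeping duplicates and filtering on false discovery rate. The deposited peak lists hold 38533 (replicate 1) and 30134 (replicate 2) peaks, and the authors' fold enrichment of each, a ratio on a linear scale. Depth is unknown.

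From these, 23901 shared intervals (overlap of at least 1 bp) were computed and laid over GENCODE M21 exons of all 21951 protein-coding genes. Positions are those of interval midpoints on the transcript with the longest CDS. Placement was tested on simulated data. Sequences are GRCm38 and GENCODE transcripts, and repeat masking is that of the RefSeq GRCm38 sequence. Shares carry 95% Wilson intervals. No test was made, since there is 1 condition with 2 replicates. Genes given with values were the 10 with the highest lower value of both replicates, the 5 with most intervals, and the named release machinery, and others were chosen after their values were seen. Results for 2 single genes are not reported here. The genes and lists were chosen with earlier results of these data known. Alternatives varied overlap, threshold, exon and transcript choice, windows and motif. Python 3.11.15, pandas 2.3.3, numpy 2.4.6, scipy 1.17.1 and matplotlib 3.10.9 were used.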

Additional observations from a re-analysis of the deposited data

How the results depend on the processing

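Of 70 alternative values for 11 results, 54 stayed within 1.5 times the count reported, within the 95% interval of a share or correlation, or between the quartiles behind a median. The number of vesicle and SNARE genes with a shared interval was 49 with at least 50% of both peaks overlapping or with intervals over another gene left out, 36 where both lists had to reach 2-fold, and 50 with the midpoint in an exon or the representative transcript only. From 1 list alone it was 51 (replicate 2) and 56 (replicate 1). Over all protein-coding genes the share was 43.0% with at least 50% of both peaks overlapping, 36.8% at a fold enrichment of at least 2, 41.9% without intervals over another gene, 44.4% with the midpoint in an exon, 44.1% on the representative transcript, and 49.5% to 54.4% from 1 replicate alone. At a fold enrichment of at least 2 there were 58 intervals over the 66 genes, with medians of 3.45 and 2.58, Spearman's rho of 0.300 and GGACT in 38% of windows, a setting that removes the lower values by construction. The share near the stop codon was 7.89% within 100 nt and 32.5% within 400 nt. GGACT was in 17.5% of windows reaching 50 nt to each side of the midpoint, and GGAC in 74.6% of those reaching 100 nt.

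Chosen after seeing the data were 2 settings. On APPRIS principal transcripts 119 intervals were placed, with 20.2% near the stop codon, 46.2% in CDS, 37.8% in 3′ UTR and 16.0% in 5′ UTR, against 23.3%, 60.2%, 30.1% and 9.74% over all genes. Without 3 intervals of which 50% or more is masked as repeat, 50 genes and 135 intervals remained.

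No paired analysis was possible because the input samples came without files and only 1 group has values. With 2 replicates and no counts, neither the spread of a fold enrichment nor the depth behind an absent peak can be given, and the mix of cell types in whole brain cannot be told apart from marking within a cell.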

Other observations

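The highest fold enrichment among all 20997 matched peak pairs of protein-coding genes belonged to a vesicle or SNARE gene in each replicate, and to a different one. In replicate 1 it was the Vamp1 interval at chr6:125242004-125242369, with 13.2 against 12.6 for the highest pair elsewhere. In replicate 2 it was the Stx8 interval at chr11:67966494-67966693, with 9.58 against 8.56. Neither was high in the other replicate to the same degree, with 3.77 for Vamp1 and 2.14 for Stx8. The Vamp1 interval is masked as repeat over 95.4% of its bases, and the Stx8 interval over none. The midpoints of both lie only in exons of noncoding transcripts. Of the 138 intervals only 2 others were masked over 50% or more, among them one in the 3′ UTR of Sv2c (58%). Such intervals were 2.17% of those in these genes and 1.23% over all protein-coding genes. The part of the repeat in the value of Vamp1 was not tested.

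Shared intervals wholly within introns were found in 2 of the genes. Syt1 had one at chr10:108548327-108548537, with 4.73 in replicate 1 and 3.62 in replicate 2, both above every exonic interval of the gene. Syt7 had one at chr19:10431887-10432116, with 2.55 and 1.97.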
